A study of Mus musculus with 24 samples.

Results

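Total leukocytes infiltrating the pancreas were compared between mice with an aggressive and mice with a benign autoimmune infiltrate. The arrays were taken by their titles, which name total pancreatic infiltrate of BDC2.5 B6g7 or BDC2.5 NOD mice, and 6 of the 24 arrays of the study carry such a title, 3 per background. The other 18 arrays hold sorted pancreatic and lymph node T cells, splenic natural killer (NK) cells and splenic leukocytes of the same backgrounds, and enter here through the shared estimate of the spread and as references. All 6 infiltrates came from untreated mice with the BDC2.5 transgene, a T cell receptor of a CD4 T cell clone that recognises the insulin-producing beta cells, and RNA was amplified in 2 rounds for each. B6g7 stands for the C57Bl/6 background made homozygous for the H2g7 haplotype (H2g7/g7), the MHC haplotype of NOD mice; the labels call the infiltrate aggressive on this background and benign on NOD. B6g7 arrays 1, 2 and 3 came from mice of 25, 28 and 24 days of age, and the 3 NOD arrays from mice of 25 days. Cells were sorted as viable (Hoechst-negative) and positive for CD45, the surface phosphatase of all leukocytes, so each array reads a mixture of cell types. In such a mixture, fewer cells of a type and less RNA per cell cannot be told apart. The labels give neither the sex of the mice nor how many were pooled for an array, and do not say that arrays of a group came from separate mice, so p-values measure the spread between these arrays, which may be technical. Background and disease course go together in this design and cannot be told apart.

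In BDC2.5 mice, T cells carrying the transgenic receptor enter the islets at a young age and bring other leukocytes with them, an infiltrate called insulitis. Whether insulitis stays contained or destroys the beta cells depends on the other genes of the mouse and on the cells around the T cells. NK cells kill through granules that hold perforin and granzymes and release interferon-gamma, and macrophages take up dead cells and present antigen. CD45-positive infiltrates let these populations be read side by side.

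Values are log2 of the deposited array intensity, and a difference is B6g7 minus NOD on that scale, so that 1 unit is a doubling. A probe set passed where limma's Benjamini-Hochberg adjusted p over all 12422 probe sets was under 0.05. Where a gene had several probe sets, the one with the highest mean over all arrays represented it in counts over genes. Leukocyte genes were present in every infiltrate. Ptprc, which encodes CD45, lay at 8.60, 8.17 and 9.26 in B6g7 arrays 1 to 3 and at 8.02, 7.77 and 8.76 in NOD arrays 1 to 3. The B cell gene Ms4a1 (CD20) lay between 9.36 and 9.88 in all 6, the T cell receptor chain Cd3g between 7.64 and 8.56, and Csf1r, the growth factor receptor of macrophages, between 7.85 and 9.32. The groups overlapped for each of these. Of 17 CD45 and pan-leukocyte genes measured, none passed and the median difference was 0.03. Digestive enzymes of the exocrine pancreas were near their splenic levels: colipase (Clps) lay between 6.77 and 7.46 in infiltrates, against group means of 6.83 and 6.93 in B6g7 and NOD spleen, and none of the 22 acinar transcripts measured passed. Of 26 islet transcripts none passed either.

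Before the comparison, single arrays stood apart in transcripts of other organs. Alb, which encodes the liver protein albumin, lay at 10.58 and 10.46 in B6g7 arrays 1 and 2, but at 4.19 in B6g7 array 3 and at 4.15, 4.01 and 4.51 in the NOD arrays. Only 2 of the 6 infiltrates thus carried it, and both were B6g7. The fatty acid carrier Fabp1 had the same pattern, at 8.05, 8.02 and 3.25 in B6g7 and 3.48, 3.34 and 3.22 in NOD. Of 53 liver transcripts, 31 in B6g7 array 1 and 29 in array 2 were over 1 unit above the highest splenic leukocyte array, against 0 in B6g7 array 3 and 2, 0 and 1 in the NOD arrays. The summed linear intensity of the list was 10051 and 8983 in B6g7 arrays 1 and 2 and at most 2466 in the other 4. Across backgrounds 50 of the 53 were above 0 with a median difference of 0.67, and none passed, with B6g7 array 3 at the level of the NOD arrays. Both liver-carrying arrays are B6g7. The part of liver RNA in the other differences was not tested beyond leaving these arrays out and fitting Alb as a covariate.

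Red cell transcripts marked another array. Hba-a1, an alpha globin gene, reached 13.69 in NOD array 1, against 9.70 and 7.18 in the other NOD arrays and 8.25, 9.62 and 6.14 in B6g7. Alas2, the heme synthesis enzyme of red cell precursors, lay at 9.63 in NOD array 1 and between 4.97 and 5.88 in the other 5. The summed intensity of the 16 erythroid transcripts was 15742 in that array and at most 2156 elsewhere. It was the only infiltrate with erythroid transcripts over 1 unit above every other infiltrate, for 4 of the 16.

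Sex-linked transcripts also divided the arrays within groups. Xist, the RNA that silences an X chromosome in female cells, lay at 3.72, 4.31 and 7.56 in B6g7 and 7.21, 5.68 and 4.11 in NOD. The Y-linked Eif2s3y lay at 7.27, 7.09 and 6.34 in B6g7 and 4.78, 5.80 and 7.54 in NOD. B6g7 array 3 and NOD array 1 thus had high Xist, B6g7 arrays 1 and 2 and NOD array 3 had low Xist, and NOD array 2 lay between. Neither gene divided the backgrounds, and both were chosen after their values were seen.

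**Figure D1:**
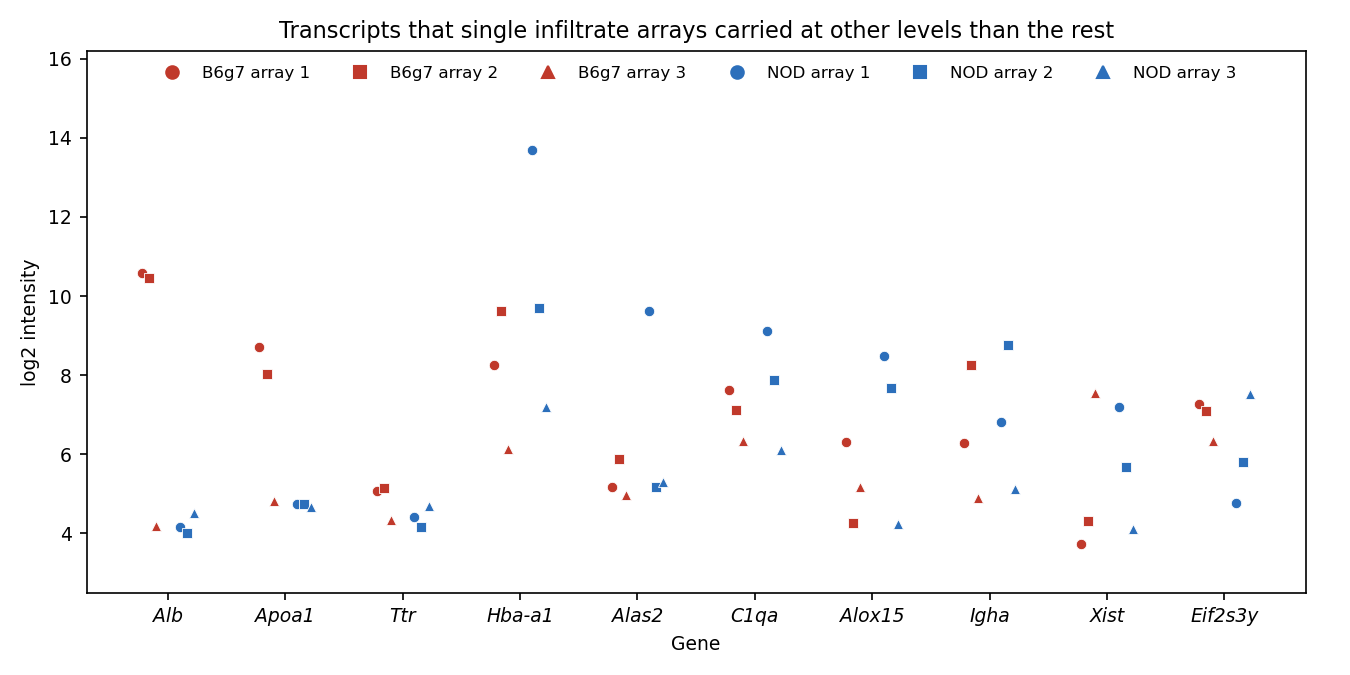
Log2 intensity of 10 genes in each infiltrate array, with B6g7 in red, NOD in blue and the marker shape giving the array number. Alb and Apoa1 are high in B6g7 arrays 1 and 2, Hba-a1 and Alas2 in NOD array 1, and Xist and Eif2s3y divide arrays within both groups.

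How far apart 2 arrays lay did not follow background alone. B6g7 array 3 and NOD array 3 had 150 probe sets over 1 unit apart, the fewest of any pair, although they differ in background. B6g7 arrays 1 and 2 had 154 and NOD arrays 1 and 2 had 201. B6g7 arrays 1 and 3 had 721, more than most pairs of unlike background, and B6g7 array 1 and NOD array 3 had 919, the most. Serial codes in the descriptions place both arrays numbered 3 next to each other, and B6g7 array 1 next to NOD arrays 1 and 2, while B6g7 array 2 stands alone. What the codes count is not stated. Differences within these runs of codes are given below as the difference in the run of array 1 and in the run of array 3.

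**Figure D2:**
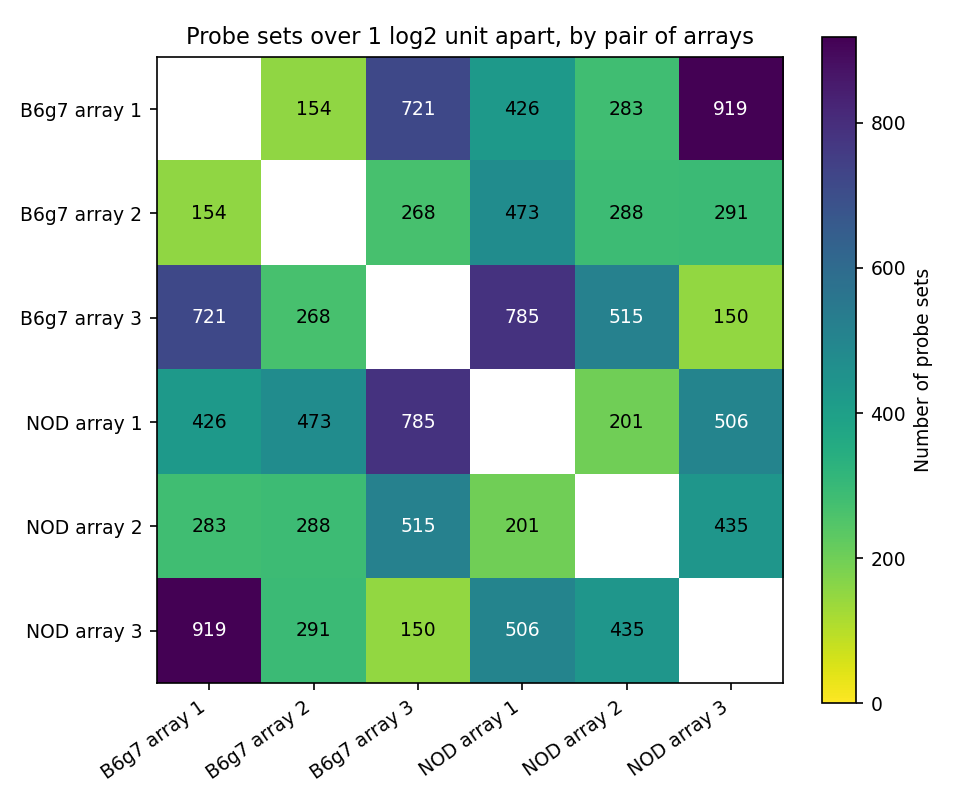
Number of probe sets over 1 log2 unit apart for each pair of the 6 infiltrate arrays. The lowest count, 150, is between the 2 arrays numbered 3, which are of different backgrounds, and the highest, 919, between B6g7 array 1 and NOD array 3.

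The comparison of aggressive with benign infiltrates asks which genes of the leukocyte mixture differ when the same T cell receptor acts on each background. Of 12422 probe sets 34 passed, which is 0.274%, with 27 higher in B6g7 (0.217%) and 7 lower (0.0564%). An unadjusted p under 0.05 was reached by 521. Of the 34, 28 named a single gene, and these gave 22 genes higher and 5 lower in B6g7. Counted by representing probe sets, 19 of 8251 genes passed as higher (0.23%) and 4 as lower (0.0485%), while without adjustment a p under 0.05 was reached by 2.1% on the higher and 2.22% on the lower side. Differences over 1 unit were found at 163 probe sets, 130 of them higher, and 27 of these 130 belong to genes of the liver list, carried by B6g7 arrays 1 and 2. Over the 8251 genes the median difference was -0.01 and 47.4% lay above 0, a balance that arrays scaled to like medians cannot depart from far. Calls depended on single arrays: 16 probe sets passed without B6g7 array 1 and 16 without NOD array 1, 17 without B6g7 array 2 and 18 without NOD array 2. Without both liver-carrying arrays, which leaves 1 B6g7 array, 2 passed. With Alb as a covariate 3 passed, 2 of them among the 34. With the run of serial codes as a block 15 passed, 14 of them among the 34. B6g7 array 2 is alone in its run, so the difference with this block does not draw on it. Of the 28 probe sets of single genes, 8 passed whichever array was left out, and these were Cd72, Trgv1, Itgae, Cma1, 1 of 2 for Ctsc, Emp1, Ifi202b and Adamdec1. In the fit of the 6 infiltrates alone 11 of the 28 passed. Of the 8, only Trgv1, Itgae and Ifi202b passed there, while Cd72 had an adjusted p of 0.108, Cma1 of 0.193, Ctsc of 0.0811, Emp1 of 0.0690 and Adamdec1 of 0.0603.

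**Figure D3:**
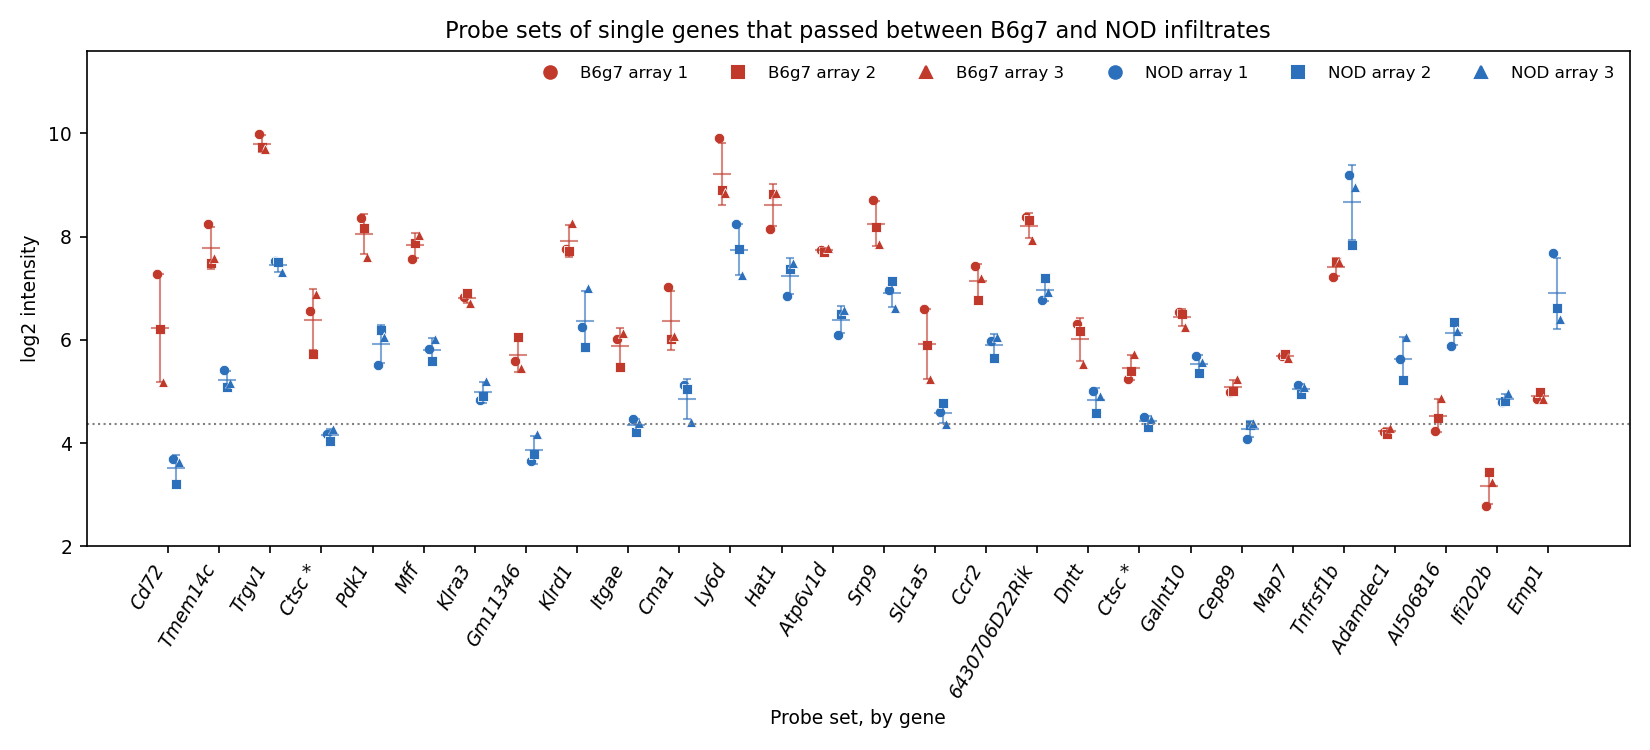
Log2 intensity of the 28 probe sets of single genes that passed, ordered by difference, in the 3 B6g7 (red) and 3 NOD (blue) arrays, with bars at the mean ± SD and an asterisk for a gene with 2 passing probe sets. The dotted line at 4.36 is the median level of 6 liver transcripts in 18 arrays without liver RNA; for Cd72, Itgae and Ifi202b, among others, the lower group lies at or under it.

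Receptors of NK cells were among the genes higher in B6g7. Klra3, an inhibitory receptor of the Ly49 family that reads MHC class I, lay at 6.82, 6.91 and 6.72 in B6g7 and at 4.83, 4.91 and 5.20 in NOD. All 3 B6g7 arrays were above all NOD arrays, with a gap larger than the range of either group. The difference was 1.84 (SE 0.29, adjusted p = 0.00826), 1.95 and 1.52 within the runs. Klrd1, the CD94 chain that pairs with NKG2 receptors, lay at 7.77, 7.72 and 8.26 in B6g7 and 6.24, 5.85 and 7.0 in NOD, a difference of 1.55 (SE 0.30, adjusted p = 0.0359). NOD array 3 came nearest to the B6g7 arrays, which did not overlap with NOD. Klra3 lost its call without B6g7 array 2 or NOD array 1 (adjusted p up to 0.0574) and Klrd1 without any array but NOD array 3 (up to 0.220). With the runs as a block they had adjusted p of 0.0788 and 0.0799.

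Of 43 NK receptor and lineage genes listed, 24 were measured. Klra3 and Klrd1 passed as higher and none as lower, against 0.23% and 0.0485% of all genes. Above 0 lay 21 of the 24, with a median difference of 0.34. The 3 B6g7 arrays lay above the 3 NOD arrays for 11 members and below them for none, where over all genes 5.15% lay above and 5.51% below. Among members that did not pass, the activating receptor Klrk1 (NKG2D) lay at 6.90, 6.77 and 6.83 in B6g7 and 6.09, 5.76 and 6.27 in NOD, a difference of 0.79 (adjusted p = 0.210). Klra7, another Ly49 receptor, lay between 7.04 and 7.75 in B6g7 and between 6.20 and 6.62 in NOD. A second probe set of Klra7 differed by 0.88, against 0.98 for the first. Cd244a (2B4), Cd160 and Klrb1a, receptors that NK cells share with some T cells, differed by 0.89, 0.82 and 0.97 with no overlap. In Klrg1, a receptor of mature NK and effector T cells, NOD array 3 at 7.26 lay above B6g7 array 1 at 7.24, while the other NOD arrays were at 5.98 and 5.88. Ncr1, a defining marker of this list, differed by 0.19 with overlap. Its lower group lay at 4.24, under the 4.36 of absent transcripts. The lineage factors Eomes (0.01) and Nfil3 (-0.21), the integrin chain Itga2 (-0.04) and the signal adaptor Fcer1g (0.02) were near 0. The difference thus did not run through the whole list. Without both liver-carrying arrays the median was 0.57. The Klra3 and Klra7 probe sets are marked as matching a sequence family and can read related Ly49 genes.

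Granule proteins are the means by which NK cells and cytotoxic T cells kill. Gzma, a granzyme, lay at 8.87, 8.66 and 9.71 in B6g7 and 6.99, 6.93 and 8.30 in NOD, a difference of 1.68 (SE 0.40, adjusted p = 0.122). In both groups array 3 was the highest, yet the groups did not overlap, and the difference was 1.91 and 1.42 within the runs. Cst7 (cystatin F, an inhibitor of granule proteases) lay at 6.28, 6.84 and 6.52 in B6g7 and 5.58, 5.41 and 5.88 in NOD. Ctsw (cathepsin W) differed by 1.08 and the pore protein Prf1 (perforin) by 0.80, both without overlap. Gzmb (1.02) and the death ligand Fasl (0.98) overlapped, with NOD array 3 at 8.82 and 6.55, above the lowest B6g7 array. Of 19 cytotoxic granule and death ligand genes measured none passed, 13 were above 0 and the median was 0.18. That median was 0.02 without NOD array 1, 0.05 without B6g7 array 3, 0.12 without NOD array 2, 0.10 with the runs as a block and 0.33 without the liver-carrying arrays. The members with a difference over 0.5 were Gzma, Ctsw, Gzmb, Fasl, Cst7, Serpinb9 and Prf1, while granzymes Gzmd, Gzmg, Gzmk and Gzmm lay between -0.23 and -0.09.

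**Figure D4:**
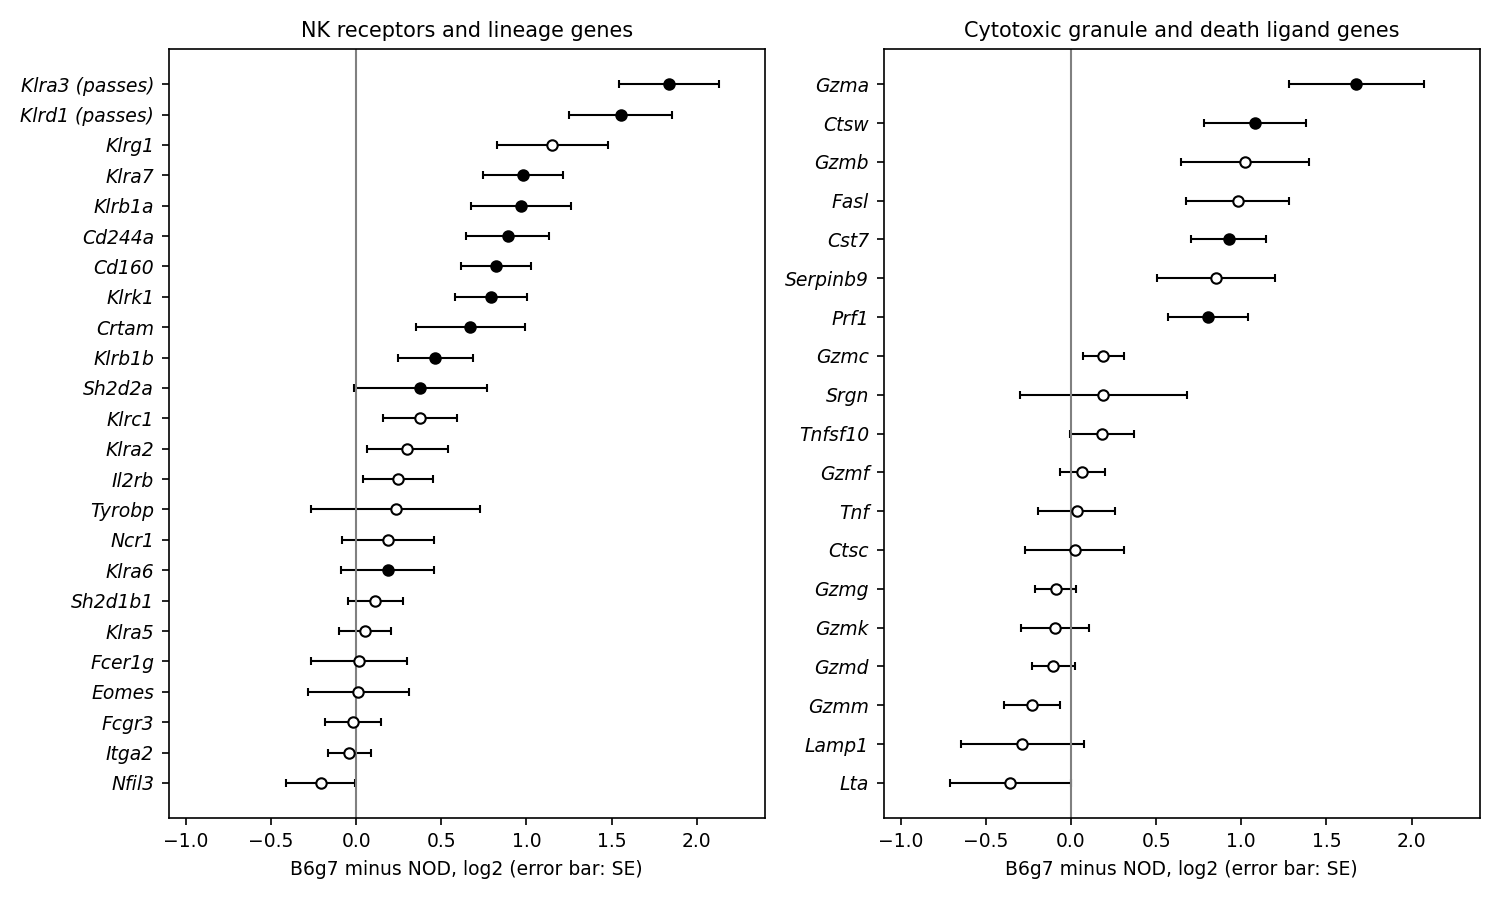
Difference between B6g7 and NOD infiltrates (log2, error bar SE from the fit) of the 24 NK and 19 cytotoxic list members, with filled points where the 3 B6g7 arrays do not overlap with the 3 NOD arrays. Klra3 and Klrd1 pass, and granule genes divide into a set near 1 and a set near 0.

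Of 24 NK and 19 cytotoxic list members measured, the arrays of the 2 groups stood apart upward for 15, against 5.15% of all genes. RefSeq promoters were at hand for 11 of these 15. Promoters of Klra3, the member that changed most, and of Gzma and Cst7 are shown as the 250 bases before the start site in GRCm38.p6, the C57BL/6J reference, so the NOD sequence is not shown. Capitals mark the letters TGTGGT, a core bound by RUNX factors, and the core of the interferon-stimulated response element (GAAA, any 2 bases, GAAA), bound by interferon regulatory factors, on either strand.
Klra3 (chr6:130337627-130337876, minus strand): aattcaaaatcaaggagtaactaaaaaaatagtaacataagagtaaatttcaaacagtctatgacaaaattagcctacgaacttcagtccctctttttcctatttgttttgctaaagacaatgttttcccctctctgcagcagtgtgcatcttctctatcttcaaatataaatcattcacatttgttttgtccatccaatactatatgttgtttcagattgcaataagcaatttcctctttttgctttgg
Gzma (chr13:113100982-113101231, minus strand): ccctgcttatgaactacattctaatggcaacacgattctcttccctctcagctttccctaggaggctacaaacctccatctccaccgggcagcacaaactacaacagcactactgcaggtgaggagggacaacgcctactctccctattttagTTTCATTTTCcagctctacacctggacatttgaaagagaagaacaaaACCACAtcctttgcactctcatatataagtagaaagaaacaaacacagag
Cst7 (chr2:150570165-150570414, plus strand): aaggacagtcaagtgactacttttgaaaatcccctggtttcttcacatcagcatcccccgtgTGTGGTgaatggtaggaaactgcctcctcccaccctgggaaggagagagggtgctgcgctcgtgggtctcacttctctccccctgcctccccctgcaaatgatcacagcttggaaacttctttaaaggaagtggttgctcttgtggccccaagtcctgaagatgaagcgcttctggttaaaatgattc
The RUNX letters occurred in 7 of the 14 promoters of these 11 genes, those of Cd160, Cst7, Gzma, Klrb1a, Klrk1 and Prf1. Over the same 250 bases they occurred in 14.1% of all 32851 promoters. List members that did not stand apart were not counted, so the share is not shown to be particular to these genes. The Klra3 promoter held neither of the marked letters. The response element core occurred in the Gzma promoter alone among the 14, and in 2.98% of all. Another set of letters searched, TCACAC, bound by T-box factors, occurred in 2 of the 14 and in 12.3% of all. These are matches of letters and say nothing of binding in these cells, and related Ly49 and Klr genes lie next to each other in the genome and share sequence.

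Interferon-gamma and its targets were measured next. Ifng lay at 5.68, 6.33 and 6.48 in B6g7 and 4.28, 4.17 and 5.74 in NOD, a difference of 1.43 (SE 0.40, adjusted p = 0.278). Again NOD array 3 stood above the other NOD arrays and over B6g7 array 1, so the groups overlapped. Of 24 interferon-gamma response genes none passed, 18 were above 0 and the median was 0.19, but it was 0.41 in the run of array 1, 0.10 in the run of array 3 and -0.03 without the liver-carrying arrays. Leaving out single arrays gave 0.02 without B6g7 array 1, 0.33 without B6g7 array 2, 0.30 without B6g7 array 3 and 0.11 without NOD array 1. Guanylate-binding and immunity-related GTPases gave examples: Irgm2 lay at 8.86, 9.17 and 9.33 in B6g7 and 7.85, 8.97 and 8.80 in NOD, with NOD array 1 far under the rest. Of the helper and inflammatory cytokines, Il1b, released by activated macrophages, lay at 7.05, 6.92 and 6.07 in B6g7 and at 7.06, 7.08 and 7.87 in NOD, so that the groups only just stood apart (B6g7 minus NOD -0.66, adjusted p = 0.999). None of 29 cytokines passed.

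Chemokines that attract T cells, NK cells and monocytes were above NOD in all B6g7 arrays for 3 of 25 measured members and below for 3, against 5.15% and 5.51% of all genes. Ccl5 lay at 10.21, 10.83 and 10.92 in B6g7 and 9.44, 8.53 and 9.75 in NOD, a difference of 1.41 (SE 0.65, adjusted p = 0.999). Ccl3 lay at 6.74, 6.57 and 6.53 against 5.50, 5.32 and 5.92, a difference of 1.03 (adjusted p = 0.138), and Ccl4 differed by 0.81. Those lower were Cxcl13 (-0.59), Cxcl1 (-0.40) and Ccl17 (-0.18), the list's median was 0.00 and no chemokine passed. Among 20 chemokine receptors 1 passed, as higher, against 0.23% of all genes. Ccr2, which draws monocytes and some lymphocytes into inflamed tissue, lay at 7.43, 6.78 and 7.20 in B6g7 and 5.97, 5.64 and 6.06 in NOD, without overlap. Ccr2 rose by 1.24 (SE 0.24, adjusted p = 0.0321), and its adjusted p reached 0.184 when single arrays were left out, with the call lost without B6g7 arrays 1 or 3 or NOD arrays 1 or 2. It was 0.0552 with the runs as a block.

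Gamma-delta T cells carry a second kind of T cell receptor, and segments of its gamma chain were measured. Trgv1, a variable segment of the gamma chain of gamma-delta T cells, lay at 9.98, 9.73 and 9.69 in B6g7 and at 7.52, 7.50 and 7.31 in NOD. Each group was tight, with an SD of 0.16 and 0.12, and the groups lay over 2 units apart. Trgv1 rose 5.14-fold (2.36, SE 0.28, adjusted p = 6.28e-04), by 2.47 and 2.39 within the runs, and no left-out array ended the call. Trgv4, the next segment with a probe set, lay at 5.70, 5.79 and 4.58 in B6g7 and 4.11, 4.22 and 4.03 in NOD, a difference of 1.24 (adjusted p = 0.0581). It did not pass, and B6g7 array 3 was close to NOD. The lineage factors Sox13 (-0.04) and Zbtb16 (-0.20) were near 0; of the 29 genes listed for this lineage 4 were measured.

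Of 22 markers of conventional T cells none passed, with a median of 0.09, and 4 were higher in B6g7 without overlap and 0 lower, against 5.15% and 5.51% of all genes. The receptor chains Cd3e and Cd3g and the co-receptor Cd4 differed by -0.10, -0.24 and -0.19, and the chain Cd3d by 0.68, all with overlap. Thy1, a surface protein of T cells, lay at 9.54, 9.57 and 9.44 in B6g7 and 8.20, 9.02 and 8.72 in NOD, a difference of 0.87. The kinase Txk (0.90) and the transcription factor Gata3 (0.50) also stood apart. Cd8b1, the beta chain of the CD8 co-receptor, lay at 6.69, 6.98 and 6.34 in B6g7 and 4.54, 4.63 and 4.49 in NOD, without overlap, while the alpha chain Cd8a overlapped, at 6.70, 6.73 and 7.23 against 6.18, 6.59 and 7.13. The difference in Cd8b1 was 2.12 with adjusted p = 0.845 in the fit over all arrays and 0.00799 in the fit of the 6 infiltrates alone. It was 2.25 in spleen and 2.98 in pancreatic CD4 T cells. Ctla4 differed by 0.35 and Icos by 0.45, and none of 21 regulatory and inhibitory genes passed. Itgae, the integrin alpha chain CD103 that holds lymphocytes in epithelia, lay at 6.02, 5.48 and 6.14 in B6g7 and 4.46, 4.22 and 4.38 in NOD. Itgae rose at least 2.89-fold (1.53, SE 0.24, adjusted p = 0.00654), with a second probe set at 0.46. It was the only 1 of 25 integrin and homing genes that passed, where 0.23% of all genes passed as higher. A fold is written as at least where the lower group lay at or under 4.36. Absent transcripts ranged from 3.22 to 6.25. Other folds with a lower group in that range, such as those of Emp1, Tmem14c and Pdk1, may thus be lower bounds too. The B6g7 arrays of Itgae, its higher group, also lay within that range.

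B cell genes gave 2 of the 34 calls by representing probe sets while most of the list stood still. These 2 were among 27 genes measured, where 0.23% of all genes passed as higher. Cd72, a B cell co-receptor that dampens antigen receptor signals, lay at 7.28, 6.21 and 5.18 in B6g7 and 3.70, 3.21 and 3.63 in NOD. The NOD arrays lay under the level of absent transcripts, and the B6g7 arrays were widely spread. In B6g7 the level of Cd72 exceeded that in NOD at least 6.54-fold (2.71, SE 0.35, adjusted p = 0.00174), by 3.82 in the run of array 1 and 1.55 in that of array 3. Ly6d, a marker of early B cells, lay at 9.91, 8.91 and 8.84 in B6g7 and 8.24, 7.76 and 7.26 in NOD, and rose by 1.47 (SE 0.27, adjusted p = 0.0268). A second, dim probe set of Ly6d gave -0.14, and the call was lost without B6g7 array 1 or NOD arrays 2 or 3 (adjusted p up to 0.121). Cd79a (-0.27), Cd79b (0.10) and Ms4a1 (-0.05) did not differ beyond their spread, and the median of the 27 B cell genes measured was -0.06.

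Dntt, the terminal transferase that adds bases to rearranging receptor genes in immature lymphocytes, was read by 3 probe sets. One lay at 6.31, 6.18 and 5.54 in B6g7 and 5.02, 4.58 and 4.92 in NOD and passed (1.17, SE 0.19, adjusted p = 0.00826). The representing probe set differed by 0.93 (adjusted p = 0.0755), without overlap, and the dimmest by -0.12. The recombinase gene Rag1, active in the same cells, was at -0.01. The call was lost without B6g7 arrays 1 or 2 or NOD array 2 (adjusted p up to 0.0743), and with the runs as a block (0.0523).

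Probe sets of 1 gene disagreed for other calls as well. Ctsc, the protease that activates granzymes, passed at 2 of its 3 probe sets. The larger lay at 6.56, 5.73 and 6.89 in B6g7 and 4.18, 4.03 and 4.27 in NOD (2.23, SE 0.41, adjusted p = 0.0253), and the smaller differed by 1.03 (adjusted p = 0.00531). The brightest probe set, however, read 6.83, 6.55 and 7.31 in B6g7 and 6.77, 6.52 and 7.32 in NOD, a difference of 0.02 in which each array had its counterpart in the other group. Total Ctsc RNA is therefore not shown to differ. Cma1, a mast cell chymase, passed at the probe set reading 7.03, 6.01 and 6.08 against 5.12, 5.05 and 4.42 (1.51, adjusted p = 0.00625), and the others gave 0.54 and -0.07. Of 29 granulocyte and mast cell genes 25 were below 0 and none passed by its representing probe set. AI506816, an uncharacterised transcript, fell by 1.60 at one probe set (adjusted p = 0.00961) and read 1.30 higher at the other (adjusted p = 0.727), both without overlap. The larger Ctsc call was lost without B6g7 arrays 1 or 3 or NOD arrays 1 or 2 (adjusted p up to 0.135), and that of AI506816 without B6g7 arrays 1 or 2 or NOD array 2 (up to 0.0744) and with the runs as a block (0.0550).

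Genes of metabolism and organelles gave large single differences. Tmem14c, a mitochondrial carrier of heme precursors listed here among erythroid genes, lay at 8.24, 7.49 and 7.60 in B6g7 and 5.42, 5.09 and 5.17 in NOD, and rose 5.86-fold (2.55, SE 0.43, adjusted p = 0.0116). NOD array 1, with the most globin RNA, was as low in Tmem14c as the other NOD arrays. Pdk1, the kinase that shuts off pyruvate dehydrogenase, lay at 8.36, 8.17 and 7.61 in B6g7 and 5.51, 6.20 and 6.06 in NOD, and rose 4.36-fold (2.12, adjusted p = 0.0141). Of the other 24 glycolysis and hypoxia genes none passed, and Pdk3 and Pdk4 were at 0.24 and -0.24. Mff, which recruits the fission machinery to mitochondria, lay at 7.57, 7.88 and 8.04 in B6g7 and 5.81, 5.58 and 6.02 in NOD (2.02, SE 0.40, adjusted p = 0.0370), while its partners Fis1 (0.05) and Dnm1l (0.12) were near 0. The glutamine transporter Slc1a5 lay at 6.61, 5.91 and 5.24 in B6g7 and 4.60, 4.77 and 4.37 in NOD (1.34, adjusted p = 0.0321). Other rises were those of Gm11346 (1.83), the histone acetyltransferase Hat1 (1.38), the proton pump subunit Atp6v1d (1.35), the signal recognition particle protein Srp9 (1.34), 6430706D22Rik (1.24), Galnt10 (0.90), Cep89 (0.81) and Map7 (0.64), with adjusted p between 0.0141 and 0.0370. With the runs as a block Tmem14c (adjusted p = 0.0523), Pdk1 (0.0949) and Mff (0.219) did not pass, and single arrays ended these calls: B6g7 array 1 or NOD array 2 for Tmem14c (adjusted p up to 0.0859), B6g7 arrays 1 or 2 or NOD array 1 for Pdk1 (up to 0.122), and each of the 6 for Mff (up to 0.184). Slc1a5 and Srp9 lost the call without any array but B6g7 array 3 (up to 0.164 and 0.221), as did Galnt10 (up to 0.145). Gm11346, Cep89 and Map7 lost it without any but NOD array 3 (up to 0.193, 0.183 and 0.140), and Atp6v1d without each of the 6 (up to 0.229). For Hat1 the arrays were B6g7 2 and 3 and NOD 1 and 2 (up to 0.210), and for 6430706D22Rik they were B6g7 1 and 2 and NOD 1 (up to 0.116). With the runs as a block Srp9, Hat1, Gm11346, Atp6v1d, Galnt10, Cep89, Map7 and 6430706D22Rik did not pass, at adjusted p from 0.0523 to 0.239.

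Genes lower in the aggressive infiltrate were fewer. Emp1, an epithelial membrane protein, lay at 4.86, 4.99 and 4.86 in B6g7 and 7.68, 6.61 and 6.41 in NOD, and was 3.99-fold lower in B6g7 (SE 0.28, adjusted p = 0.00373). The B6g7 arrays were tight and NOD array 1 was the highest. Ifi202b, an interferon-induced DNA-binding protein, lay at 2.78, 3.45 and 3.25 in B6g7 and at 4.79, 4.81 and 4.96 in NOD, and was at least 3.24-fold lower (SE 0.16, adjusted p = 5.77e-05). It passed in all 17 alternative settings in which it was tested, 1 of which left only 1 B6g7 array. Its NOD arrays, however, also lay within the range of absent transcripts, 3.22 to 6.25, as did those of Adamdec1. Adamdec1, a protease of macrophages and dendritic cells, lay at 4.21, 4.18 and 4.30 in B6g7 and 5.63, 5.23 and 6.05 in NOD, and was at least 2.65-fold lower (SE 0.21, adjusted p = 0.00462). Tnfrsf1b, TNF receptor 2, lay at 7.21, 7.51 and 7.50 in B6g7 and 9.19, 7.84 and 8.95 in NOD, and fell by 1.26 (adjusted p = 0.0301). NOD array 2 was near the B6g7 arrays, and without it the adjusted p was 8.55e-05, while leaving out any other array ended the call (up to 0.204), as did the runs as a block (0.0704). Of 19 TNF receptor family genes 15 were below 0, Tnfrsf1b alone passed, and Tnfrsf1a was at -0.47 without overlap. Over all genes 0.0485% passed as lower.

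Macrophage and monocyte genes lay mostly below 0, at 20 of 26, with a median of -0.20. That median was 0.02 without NOD array 1 and 0.02 in the run of array 3, -0.10 without B6g7 array 2, -0.41 without B6g7 array 1 and -0.35 without NOD array 2, so its direction depended on NOD array 1. Cd14, the endotoxin co-receptor, lay at 8.74, 7.78 and 7.21 in B6g7 and at 9.08 and 8.99 in NOD arrays 2 and 3, with NOD array 1 higher still, a difference of -1.45 (adjusted p = 0.192). Members above 0 included Apoe (1.19), Chil3 (0.92), the protease Ctss (0.51) and the mannose receptor Mrc1 (0.28), of which only Mrc1 did not overlap. Outside the list, and named because they came next by p without overlap, were Spi1 and Cd93. Spi1 (PU.1), the factor of the myeloid lineage, lay at 5.87, 6.08 and 5.84 in B6g7 and 7.02, 6.69 and 6.53 in NOD (-0.82, adjusted p = 0.0755). Cd93, a receptor on myeloid and endothelial cells, differed by -1.65 (adjusted p = 0.132). Complement C1qa, in contrast, varied within groups, at 7.63, 7.11 and 6.34 in B6g7 and 9.13, 7.89 and 6.11 in NOD, in each case lowest in array 3. Of the macrophage and monocyte list 1 gene passed as higher (Ccr2) and 1 as lower (Adamdec1), against 0.23% and 0.0485% of all genes. Lower without overlap lay 4, against 5.51% of all genes. Antigen presentation by MHC class II, whose haplotype both backgrounds share, showed no call among 17 genes, with Cd74 at 10.65, 9.14 and 8.24 in B6g7 and 10.11, 10.25 and 8.54 in NOD.

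**Figure D5:**
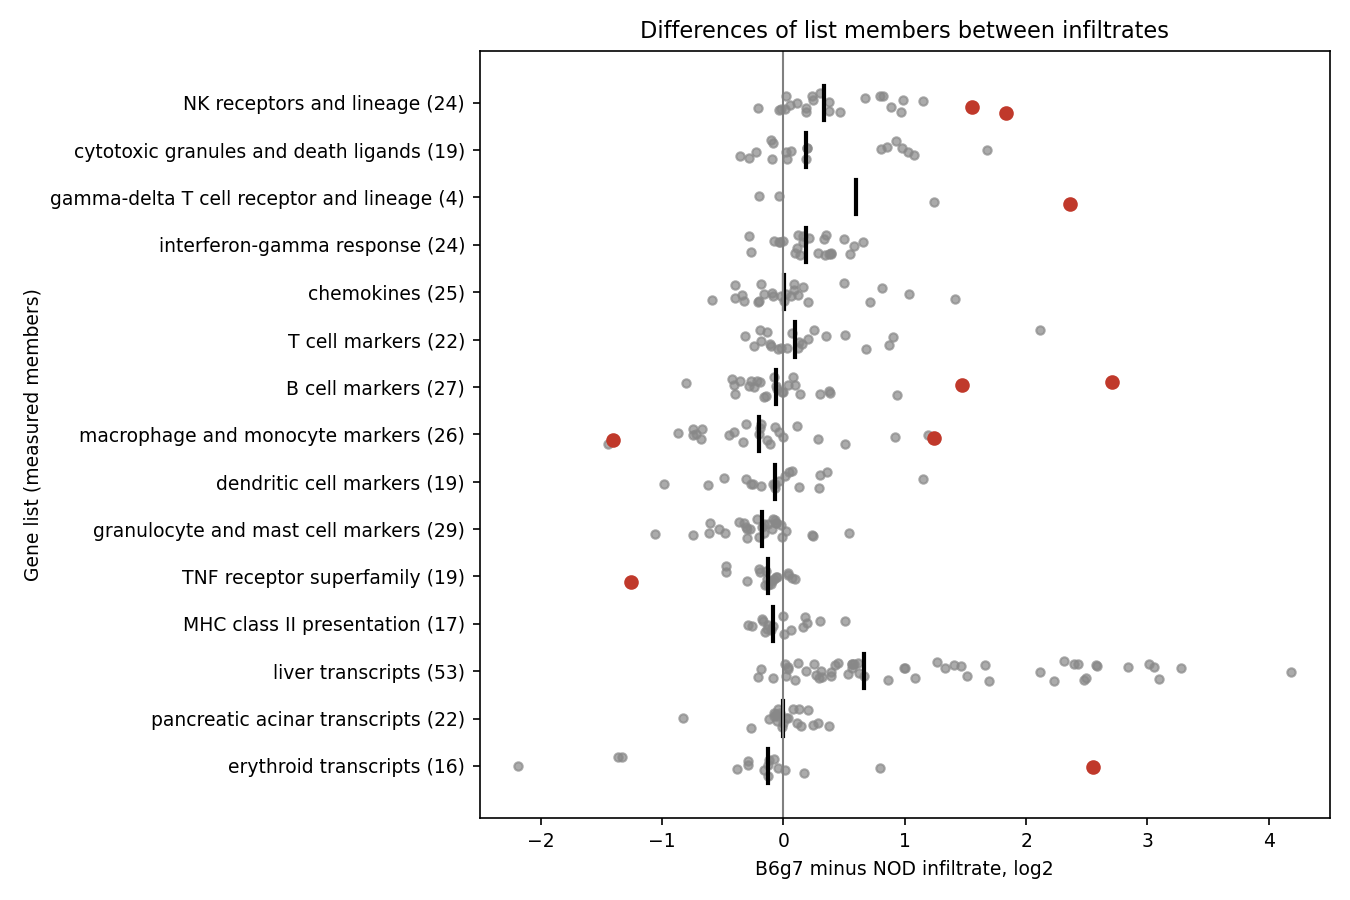
Difference between B6g7 and NOD infiltrates (log2) of every measured member of 15 gene lists, 1 point per gene, with red points for those that passed and a black bar at the list's median. NK, cytotoxic, gamma-delta, interferon-gamma, T cell and liver lists have medians above 0. Macrophage, granulocyte, TNF receptor and erythroid lists are among those with medians below 0. Without NOD array 1 the macrophage and the cytotoxic median turn to 0.02. Without the liver-carrying arrays the interferon-gamma median turns to -0.03 and the liver median to -0.00.

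Genes that did not pass but came next by p without overlap are given as values. Upward these were Trgv4, Igkv1-133 (1.56), Agtrap (0.70), the DNA repair enzyme Tdp2 (1.21), the ubiquitin ligase Trim21 (1.38), Padi2 (0.57), Desi1 (0.76), Mrpl16 (0.97), Myo6 (1.07) and Cst7, with adjusted p from 0.0581 to 0.122. Trim21 lay at 8.48, 8.18 and 8.43 in B6g7 and 6.95, 7.06 and 6.96 in NOD, so both groups were tight, but a second, dimmer probe set overlapped and differed by 0.26 (adjusted p = 0.999). Downward they were 2810025M15Rik (-0.93), the transcription co-activator Med1 (-1.82), App (-0.90), Spi1, Gatm (-1.43), Vcp (-0.86), Cd93, Efnb2 (-0.75), Eloa (-0.56) and Rflnb (-1.34), with adjusted p from 0.0581 to 0.163. Med1 lay at 6.17, 6.69 and 6.41 in B6g7 and 8.25, 8.38 and 8.09 in NOD.

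To ask whether a difference between backgrounds was unlike that in other cells, it was set against splenic leukocytes and sorted pancreatic CD4 T cells. Splenic leukocyte RNA had 1 round of amplification, against 2 for infiltrates and T cells. Titles of the splenic leukocyte arrays also do not name the BDC2.5 transgene, and no age is listed for them. The part of these unlike conditions in the interactions was not tested. The interaction with spleen passed for 5 of 12422 probe sets (0.0403%, 149 at an unadjusted p under 0.05), and that with pancreatic T cells for 2 (0.0161%, 390 unadjusted). Trgv1 passed in both: it differed by 2.36 in infiltrates, -0.72 in spleen and -0.51 in pancreatic T cells, with interactions of 3.08 (SE 0.44, adjusted p = 0.0124) and 2.87 (SE 0.42, adjusted p = 0.0271). Itgae passed against pancreatic T cells, where its difference was -0.83 (interaction 2.36, SE 0.36, adjusted p = 0.0271), but not against spleen (1.69, adjusted p = 0.405). The T cell interactions were lost without B6g7 array 1, NOD array 1 or NOD array 2, each of which left 0 calls, and without NOD array 3, where the 1 call was another probe set. Without B6g7 array 3 there were 3 calls, of which 1 was among the 2. Against spleen 3 of the 5 were left without B6g7 array 3, NOD array 2 or NOD array 3.

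For most genes called in infiltrates no such unlikeness was shown. Of the 28 probe sets 26 had the same sign in spleen, 9 of them with over 1 unit, and 21 in pancreatic T cells, 10 with over 1 unit. Over 1 unit in all 3 populations were 5: AI506816, Slc1a5, Gm11346, Pdk1 and Tmem14c. Pdk1 differed by 1.80 in spleen and 2.85 in T cells, and Tmem14c by 1.83 and 1.47. Cd72 differed by 5.60 in spleen (adjusted p = 3.35e-06) and -0.08 in T cells. Klra3 differed by 1.35 in spleen and -0.42 in T cells, with interactions of 0.48 (adjusted p = 0.999) and 2.26 (adjusted p = 0.132). In 7 probe sets the difference was under 0.5 units or opposite in both references, among them Trgv1, Itgae, Ccr2, Adamdec1 and Ifi202b. Ifi202b differed by -0.32 in spleen and -0.30 in T cells, with interactions of -1.38 (adjusted p = 0.0703) and -1.40 (adjusted p = 0.0633).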

How the data were processed

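RNA was hybridised to Affymetrix MG-U74Av2 arrays, 1 per sample. The authors deposited a linear intensity per probe set; for 11 of the 24 arrays the submitters' processing notes name RMA, among them all 3 B6g7 and no NOD infiltrates, so naming and background cannot be told apart. Array medians lay between 35.1 and 39.1 and the smallest intensity was 5.70. Intensities were taken to log2 with no pseudocount. limma 3.58.1 in R 4.3.3 fitted 10 group means to the 24 arrays (14 residual degrees of freedom), with Benjamini-Hochberg adjustment over 12422 probe sets after 66 controls were left out, and was tested on simulated data. The platform annotation gave 1 gene for 10833 probe sets, several for 396 and none for 1193. Members and lists were chosen with earlier results of these data known. Named genes were those that passed, the next 10 in each direction by p without overlap, a panel, list markers and extremes, liver transcripts, interaction calls and the most variable genes; rises beyond the 15 largest, promoter genes and others were named after their values were seen. The planned liver rule, 1 unit above every spleen, NK and lymph node array, marked 0 arrays, since lymph node arrays carried Alb; spleen alone as reference, chosen after seeing the data, marked 2. The level of absent transcripts, 4.36, was also set after seeing the data. Alternatives changed normalization, the samples fitted, weights, blocks and filters. The number of arrays limits the precision.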

Additional observations from a re-analysis of the deposited data

Results flagged for a closer look

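The interaction test of limma gave 5 calls against spleen and 2 against pancreatic T cells (Benjamini-Hochberg adjusted p under 0.05). Of these, 6 are given here, all of probe sets that name a single gene. In each, the difference between backgrounds was unlike that of the reference population. Trgv1 differed more in infiltrates than in splenic leukocytes by 3.08 (adjusted p = 0.0124) and more than in pancreatic T cells by 2.87 (adjusted p = 0.0271). Itgae differed more than in pancreatic T cells by 2.36 (adjusted p = 0.0271). Ifi209, an interferon-inducible gene, differed by -0.11 in infiltrates and 1.93 in spleen, an interaction of -2.05 (adjusted p = 0.0124). The immunoglobulin kappa segment Igkv14-111 differed by -0.07 in infiltrates and 1.36 in spleen, an interaction of -1.44 (adjusted p = 0.0185), and its other probe sets read 0.35 and -0.28 in infiltrates. Igkv15-103 differed by -0.04 in infiltrates and -2.04 in spleen, an interaction of 2.0 (adjusted p = 0.0224), and its other probe set read -0.93 in infiltrates. Ifi209 and the kappa segments were thus unlike through spleen, with infiltrates near 0.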

How the results depend on the processing

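The medians of 3 lists changed sign: without the liver-carrying infiltrates the interferon-gamma list went to -0.03 and the liver list to -0.00, and without NOD array 1 the macrophage list went to 0.02. So did 78 single results in at least 1 setting, none of them a probe set that passed. The 34 calls between infiltrates became 3 with Alb as a covariate, 302 with array weights, 15 with the serial code run as a block and 2 without the liver-carrying infiltrates, and 16 to 44 when single arrays were left out. The weight of B6g7 array 2 was 6.08. The 5 spleen interactions became 2 with 1 probe set per gene, 1 with Alb as a covariate, 18 with weights, 2 with only the 4 groups compared, 2 without the liver-carrying infiltrates, 1 without the dimmest 40% of probe sets and, in a setting chosen after seeing the data, 0 without the other liver-carrying arrays, with 3 to 5 when single arrays were left out. The 2 T cell interactions became 0 with Alb, with weights, with the 4 groups alone and without the liver-carrying infiltrates, 1 with quantile normalization, without dim probe sets and without the other liver-carrying arrays, 4 with the run block or a trended robust prior, and 0 to 3 when single arrays were left out. Causes of these shifts were not tested. The NK median of 0.34 became 0.57 without liver-carrying infiltrates, and arrays marked for liver went from 0 to 2. The fit with a replicate block made 44 calls between infiltrates, which included 32 of the 34, and 7 and 5 interaction calls; same-numbered arrays deviated together with correlations of 0.42, 0.00 and 0.55, so the numbers were not taken as pairs.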

Other observations

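In the fit of the 6 infiltrate arrays alone 29 probe sets passed, 14 of them among the 34. Cyclin Ccnd2, which drives entry into the cell cycle, lay at 8.29, 9.02 and 8.56 in B6g7 and 7.14, 6.86 and 7.25 in NOD and passed there (adjusted p = 0.0412, against 0.583 in the fit over all arrays). The splicing factor Rbm39 lay at 7.21, 7.13 and 6.91 in B6g7 and 8.57, 8.44 and 8.83 in NOD (adjusted p = 0.0152, against 0.999).

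Genes with a wide range within a group were read as values. Alox15, a lipoxygenase of resident macrophages and eosinophils, lay at 6.32, 4.27 and 5.16 in B6g7 and 8.49, 7.68 and 4.23 in NOD. Igha, the constant region of IgA, lay at 6.29, 8.26 and 4.89 in B6g7 and 6.83, 8.75 and 5.12 in NOD, with array 2 the highest in both. A range over 1 unit among the 3 arrays was found for 623 of 8251 genes in B6g7 and 562 in NOD. The gap between 3′ and 5′ control probe sets of Gapdh was 2.56, 3.16 and 3.15 in B6g7 and 3.09, 3.65 and 3.22 in NOD. For Actb the gap was 1.88, 2.01 and 2.46 in B6g7 and 1.91, 2.55 and 2.73 in NOD, the largest in array 3 of each group.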
